A study of Mus musculus with 13 samples.

Results

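Chromosome 14 of the mouse was examined in 300 kb bins of 5-hydroxymethylcytosine (5hmC), the oxidised form of 5-methylcytosine that TET enzymes produce. The chromosome was chosen by the relative difference between Phd2 heterozygous and Phd2 wild-type tumours, which was larger on it than on the other 19 chromosomes compared. All bins of the chromosome above 0 in at least 1 of 13 tumours were taken, which gave 405 of its 417 bins, out of 8576 such bins on chromosomes 1 to 19 and X. Values of the Phd2 comparison on this chromosome are therefore a description, with no test, whereas the comparison of the other mouse model played no role in the choice and was tested.

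The tumours were breast tumours that the polyoma middle T oncogene (PyMT) induces in FVB mice, 1 tumour per mouse by the sample titles. In the first model 16-week-old mice were Phd2+/+ (n = 3) or Phd2+/- (n = 4). Phd2 is an oxygen sensor that marks hypoxia-inducible factors for degradation, and the heterozygous genotype is described by the submitters as restoring tumour vessels and oxygenation. In the second model 12-week-old mice had received, by hydrodynamic injection, the empty PRRL2 plasmid (n = 3) or the plasmid with sFlk1 (n = 3), a soluble VEGF receptor described as making tumours more hypoxic. The labels do not name the cells in which Phd2 is reduced or those that take up the plasmid. The models differ in age and treatment and were compared only within themselves. 5hmC was read by shallow tet-assisted bisulfite sequencing (TAB-seq), in which 5hmC is protected and other cytosines are converted. The table held percentages without read counts, so the depth of each tumour and bin is unknown and no counting interval can be given. Whole tumours hold several cell types, and fewer cells of a type cannot be told apart from less 5hmC per cell. A table of 5hmC holds no expression markers, so the tissue could not be checked against its markers.

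TET enzymes need oxygen, iron and 2-oxoglutarate. Their product, 5hmC, is in general richest in the bodies of active genes and at enhancers, and scarce in gene-poor, late-replicating and repeat-rich DNA. Mouse chromosome 14 holds both kinds of sequence. Its first megabases carry families of near-identical predicted genes, its middle carries olfactory receptor, T cell receptor alpha and ribonuclease clusters, and its distal part holds long gene-poor stretches around neuronal adhesion genes. Between these lie parts with the retinoblastoma gene Rb1, the nuclear receptor genes Rarb and Thrb, and Top2b.

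Promoters from bins that the results turn on show this contrast at the level of sequence. Each line gives the 250 bases before an annotated start in RefSeq GRCm38.p6, 5′ to 3′ on the gene's strand, with each CG, the site where most 5-methylcytosine and 5hmC of differentiated cells lies, in capitals. Top2b (chr14:16364956-16365205, plus strand) encodes a DNA topoisomerase, and Rarb (chr14:16575477-16575726, minus strand) a retinoic acid receptor. They lie in neighbouring bins whose group values are compared with each other further on. Zmiz1 (chr14:25458935-25459184, plus strand), a coactivator gene, lies in one of the bins richest in 5hmC, and Olfr739 (chr14:50424271-50424520, plus strand), an olfactory receptor gene, in one of the poorest.
Top2b: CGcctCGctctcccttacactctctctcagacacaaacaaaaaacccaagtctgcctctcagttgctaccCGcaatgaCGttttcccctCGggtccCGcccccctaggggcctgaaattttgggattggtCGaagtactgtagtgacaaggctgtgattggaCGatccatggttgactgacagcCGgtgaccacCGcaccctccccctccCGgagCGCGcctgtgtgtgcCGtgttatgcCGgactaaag
Rarb: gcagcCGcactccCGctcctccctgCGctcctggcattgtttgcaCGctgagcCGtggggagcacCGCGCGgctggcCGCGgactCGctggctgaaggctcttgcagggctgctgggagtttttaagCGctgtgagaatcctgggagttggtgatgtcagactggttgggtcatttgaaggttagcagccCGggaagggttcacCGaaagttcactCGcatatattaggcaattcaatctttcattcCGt
Zmiz1: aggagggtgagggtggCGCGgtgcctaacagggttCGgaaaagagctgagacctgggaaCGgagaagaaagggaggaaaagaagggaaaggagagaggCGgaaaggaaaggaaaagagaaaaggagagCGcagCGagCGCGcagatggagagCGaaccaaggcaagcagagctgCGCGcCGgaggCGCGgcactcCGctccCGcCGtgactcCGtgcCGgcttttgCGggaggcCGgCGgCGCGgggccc
Olfr739: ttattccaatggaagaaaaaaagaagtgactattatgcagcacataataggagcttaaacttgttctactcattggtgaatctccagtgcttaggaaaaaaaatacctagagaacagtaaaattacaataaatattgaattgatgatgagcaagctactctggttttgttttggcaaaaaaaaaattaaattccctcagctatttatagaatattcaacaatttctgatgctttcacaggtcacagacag
The windows held 15, 16, 25 and 0 CG sites. Among 1358 promoter windows of chromosome 14, 23.3% held at least 15 CG, 21.0% at least 16 and 9.28% at least 25. Among 32619 windows of chromosomes 1 to 19 and X, the shares were 27.5%, 25.6% and 10.7%. The table had no entry for Rb1.

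Across the chromosome, CG content of these windows and 5hmC of the bins moved together as a description. Windows in the 123 bins with a mean 5hmC up to 1% held a median of 2 CG, those in the 74 bins from 1 to 2% a median of 3, those in the 128 bins from 2 to 4% a median of 5, and those in the 80 bins above 4% a median of 8. The share of windows with at least 10 CG was 14%, 19.4%, 33.6% and 46.3% in the same order. A promoter window is a small piece of a 300 kb bin, and the CG content of whole bins was not analysed here.

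Chromosome 14 was low in 5hmC. Its mean over bins lay below that of the other 18 autosomes in all 13 tumours. In the empty vector tumours the chromosome held 2.68%, 2.52% and 2.42%, and in the sFlk1 tumours 2.19%, 2.40% and 2.33%. The difference from the other autosomes was -0.243 percentage points on average over these 6 tumours, with a range of -0.296 to -0.169 and a ratio of 0.909. An exact two-sided sign-flip permutation test gave p = 0.03125, the smallest value that 6 tumours allow, and 0.0938 after Benjamini-Hochberg adjustment over the 3 single-value tests reported, so the difference did not pass 0.05 after adjustment. In the 7 tumours of the Phd2 model the difference was -0.299 points, with a range of -0.355 to -0.242. In the plasmid model its size depended on the bins used. It was -0.131 points with only bins above 0 in all 13 tumours. Without the gene-cluster stretch at the centromeric end, described further on, it was -0.181 points. It was larger without the last bin of each chromosome (-0.286) and with medians over bins (-0.387). How much of it comes from bins without reads was not tested. By mean level chromosome 14 was 17th of 20 chromosomes, and by protein-coding genes per bin (2.08) it was 15th.

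**Figure D1:**
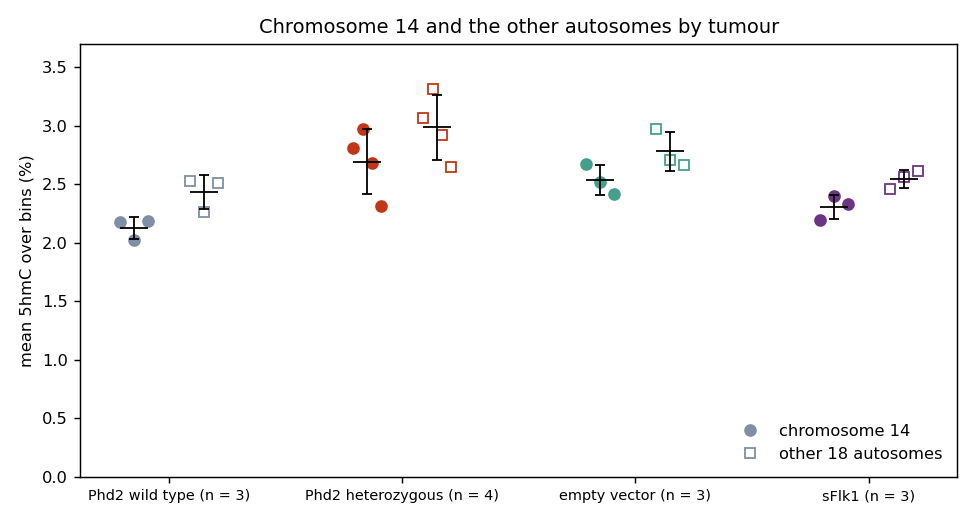
Mean 5hmC (percent) of chromosome 14 and of the other 18 autosomes in each of the 13 tumours, by group, with the group mean and SD. Chromosome 14 lies below the other autosomes in every tumour, and the sFlk1 tumours (2.19 to 2.40%) lie below the empty vector tumours (2.42 to 2.68%) without overlap.

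Bins with missing signal were common on the chromosome. Of the 405 bins, 319 were above 0 in all 13 tumours and 86, or 21.2%, were at 0 in at least 1, against 12.9% of bins of the other autosomes. Only X had a larger share among the 20 chromosomes. Absence of 5hmC and absence of reads both appear as 0 in this table and cannot be told apart. The 12 bins at 0 in all tumours were 10 in the first 3 Mb and the bins chr14:53100001-53400000 and chr14:69300001-69600000.

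The profile along the chromosome ran in long blocks of high and low 5hmC that all groups shared. Across the 405 bins, Pearson's r was 0.672 to 0.881 for the 15 pairs of tumours within a group and 0.595 to 0.892 for the 63 pairs between groups. Bins of a tumour share its library and depth, so these values are a description. By 10 Mb stretch, with bins placed by their start, the mean over 13 tumours was highest at 3.90% in the stretch from 20 to 30 Mb, which holds Zmiz1, Kat6b, Kcnma1 and Wnt5a, and lowest at 0.968% in the stretch from 80 to 90 Mb, which holds 4 protein-coding genes in 33 bins. The stretches from 60 to 70 Mb and from 70 to 80 Mb, with 3.03 and 2.18 protein-coding genes per bin, had 3.34% and 3.39%. The stretch from 50 to 60 Mb, with 6.47 genes per bin, had 2.83%, and that from 40 to 50 Mb, with 3.06, had 2.04%.

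**Figure D2:**
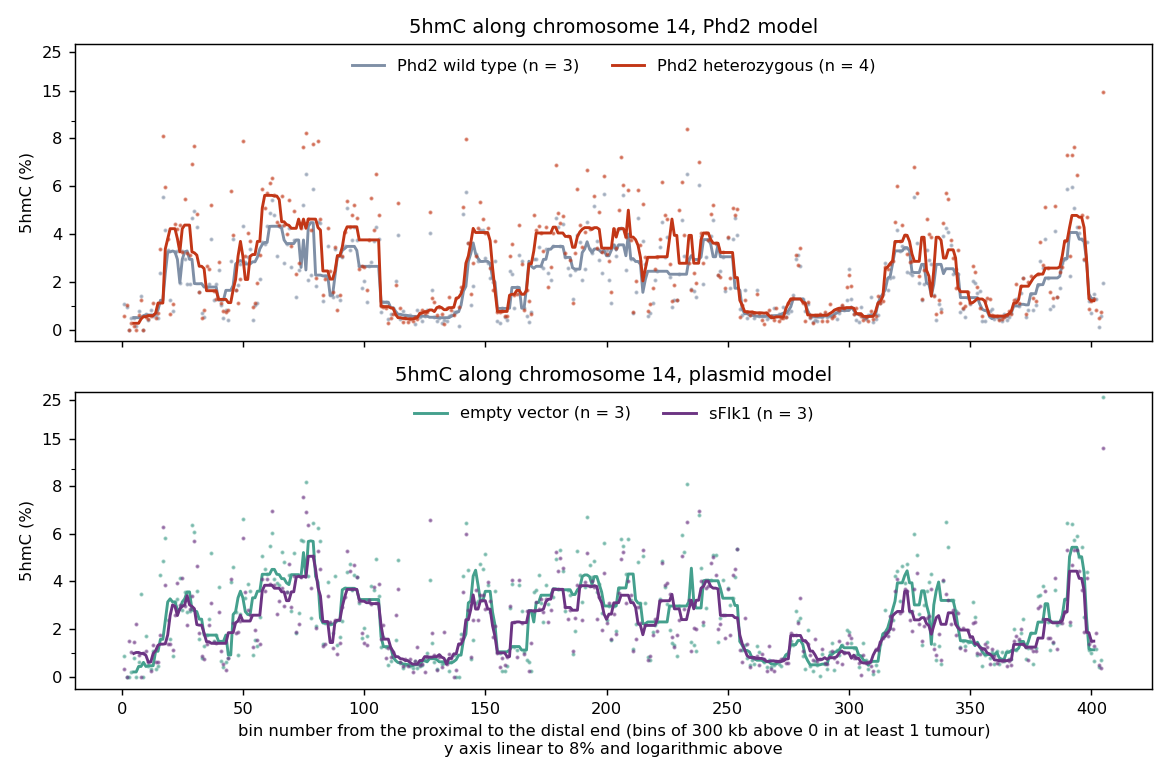
5hmC (percent) in the 405 bins of 300 kb examined on chromosome 14, as group means (points) with a running median over 9 bins (lines). Bins are in order from the proximal to the distal end, and positions in megabases are the bins' own coordinates. The vertical axis is linear up to 8% and logarithmic above; the groups follow the same blocks, with low values in the first megabases and from 81.0 to 97.2 Mb, and the single last bin stands at 14% on average.

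The highest bins held Rb1, Zmiz1, Lrch1 and Fermt2. Of bins above 0 in every tumour, the bin of Rb1, the retinoblastoma tumour suppressor, with Itm2b and Lpar6 (chr14:73200001-73500000) was highest, with a mean of 7.65% over 13 tumours. It held 6.40%, 5.69% and 7.41% in Phd2 wild-type tumours, 7.26%, 10.8%, 9.54% and 8.34% in heterozygous tumours, 9.18%, 8.96% and 6.37% in empty vector tumours, and 4.75%, 6.19% and 8.46% in sFlk1 tumours. The ranges of the groups within each model overlapped. The bin of Zmiz1, Zcchc24 and Ppif (chr14:25500001-25800000) followed with 7.64%, that of Lrch1, Esd and Htr2a with 6.71%, that of Fermt2, an integrin adaptor gene, with Styx and Psmc6 with 6.64%, and the first bin of Zmiz1 with 6.59%. The 5 lowest bins above 0 in every tumour had means of 0.477% to 0.541%. Of these, 4 lay between 83.1 and 94.8 Mb in the gene-poor distal block, and the other lay at 6.9 Mb among near-identical predicted genes.

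The stretch of gene clusters at the centromeric end, chr14:3000001-7800000, stood apart from the rest of the chromosome. It comprised 16 bins. Of 181 annotated genes there, 172 carry only a Gm or LOC number, and 77 are protein-coding. Many are near-identical copies, and how reads were placed among them is not known here. Of the 16 bins, 14 were at 0 in at least 1 tumour. The mean of the stretch was 0.603%, 0.732% and 0.761% in wild-type tumours, 0.692%, 0.780%, 0.653% and 0.640% in heterozygous tumours, 1.21%, 1.12% and 0.435% in empty vector tumours, and 0.906%, 0.722% and 1.16% in sFlk1 tumours. The groups overlapped in both models. The stretch lay below the rest of the chromosome by 1.56 percentage points on average in the 6 tumours of the plasmid model; its sparse values were known when it was set apart, so no test is given.

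Other gene clusters of the chromosome were as low. A further block of predicted genes from 41.4 to 43.8 Mb had a mean of 0.691%, the eosinophil-associated ribonuclease (Ear) block from 43.8 to 44.7 Mb 0.614%, and the olfactory receptor block from 49.5 to 50.7 Mb 0.586%. Of their bins, 7 of 8, 3 of 3 and 3 of 4 were at 0 in at least 1 tumour. The bin of Olfr740, Olfr741 and Olfr745, which also holds the promoter of Olfr739 printed above, was above 0 in all tumours and had 0.569%. Cluster genes were not all low. The 42 olfactory receptor genes of the whole chromosome lay in 11 bins that spanned 0.470% to 3.87%, with a median of 1.56%. The T cell receptor alpha segments, 191 annotated entries in 6 bins, spanned 0.640% to 3.62% by bin, the granzyme and mast cell protease bins had 2.34% and 2.72%, and the beta-defensin bins had 2.80% and 5.59%.

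Bins with more genes held more 5hmC along the chromosome. Across the 405 bins, the number of protein-coding genes and mean 5hmC had a Spearman correlation of 0.386 and a Pearson r of 0.261. By this Spearman correlation the chromosome was 15th of 20, between 0.574 on chromosome 1 and 0.0659 on chromosome 13. The share of a bin covered by gene bodies gave a Spearman correlation of 0.493, 5th of 20. Without the proximal stretch, whose many predicted genes lie in bins with little 5hmC, the Spearman correlation for gene number was 0.485. These are descriptions over bins of the same 13 libraries. With the last bin left out, bins with no protein-coding gene had a median of 1.13% (165 bins), those with 1 or 2 genes 2.97% (113 bins), those with 3 to 5 genes 3.06% (80 bins), and those with 6 or more 3.50% (46 bins).

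**Figure D3:**
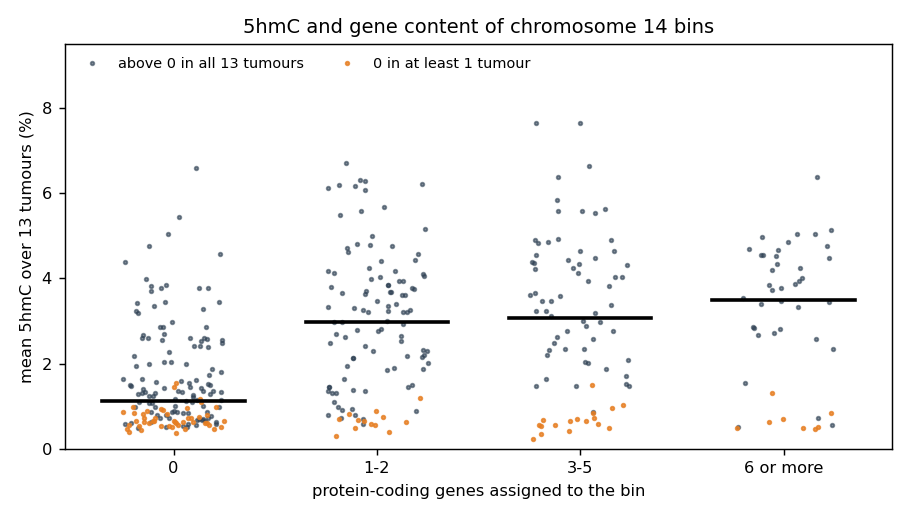
Mean 5hmC (percent, over 13 tumours) of chromosome 14 bins by their number of protein-coding genes, with the last bin left out; each point is a bin and orange points were at 0 in at least 1 tumour. The median is 1.13% in bins with no gene and 2.97% to 3.50% in the classes with genes.

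The Phd2 comparison, which selected the chromosome, asks how 5hmC differs when tumour oxygenation is restored. The wild-type tumours held 2.18%, 2.02% and 2.19% on chromosome 14, and the heterozygous tumours 2.81%, 2.97%, 2.68% and 2.32%. The heterozygous group lay wholly above the wild-type group, with heterozygous tumour 4 closest to it. Heterozygous tumours averaged 2.69% ± 0.277 (SD, n = 4) and wild-type tumours 2.13% ± 0.0938 (SD, n = 3), a difference of 0.566 points (SE 0.149) or 26.6%. The chromosomes just behind it were chromosome 13 with 25.1%, chromosome 2 with 25% and chromosome 6 with 24.8%, and the other 18 autosomes together had 22.6%.

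The lead of chromosome 14 rested in part on its last bin. That bin, chr14:124800001-124902244, is 102244 bases long, holds no annotated gene, and had the highest mean of all 8576 bins. It held 5.88%, 0% and 0% in wild-type tumours, 25%, 5.26%, 14.3% and 14.3% in heterozygous tumours, 33.3%, 25% and 20% in empty vector tumours, and 5.26%, 20% and 14.3% in sFlk1 tumours. With the last bin of each chromosome left out, an alternative added after this value was seen, the relative difference of chromosome 14 was 25.2% and that of chromosome 2 was 25%. With medians over bins it was 22.6%, 8th of 20. When each of the 7 tumours was left out in turn it ranged from 22.3% to 32.5% and the chromosome was first in 5 of 7 cases, the exceptions being without wild-type tumour 1 and without heterozygous tumour 1.

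**Figure D4:**
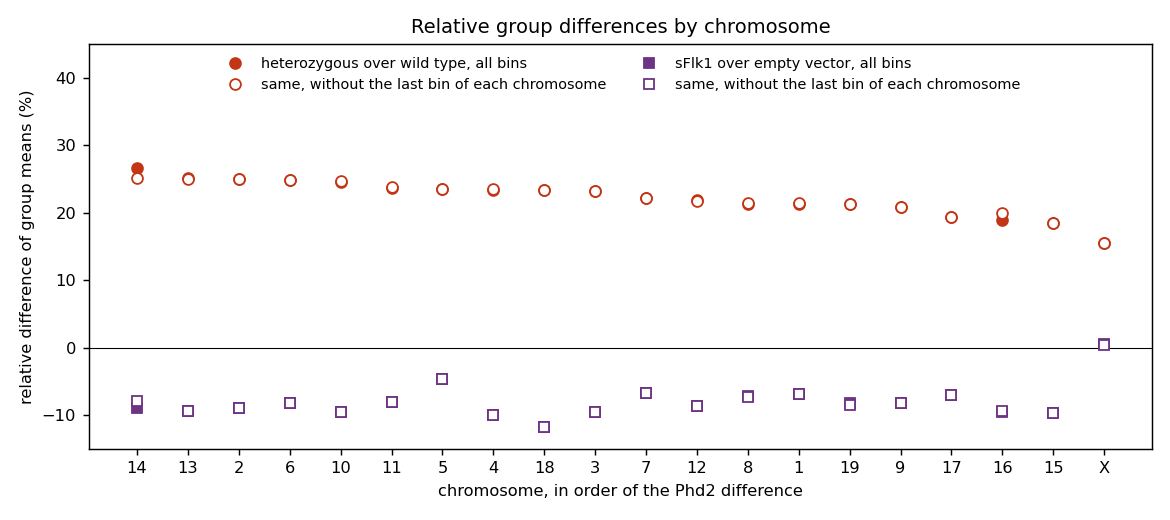
Relative difference in mean 5hmC (percent) of each chromosome, heterozygous over wild type and sFlk1 over empty vector, with all bins and with the last bin of each chromosome left out. In the Phd2 model chromosome 14 stands at 26.6% with all bins and at 25.2% without its last bin, beside 25% for chromosome 2.

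The Phd2 difference was spread over most of the chromosome, near 0 in the proximal stretch and small in the distal gene-poor block. The heterozygous mean exceeded the wild-type mean in 312 of the 405 bins (77.0%), against 75.1% of all bins. In 47 bins (11.6%) the lowest heterozygous tumour exceeded the highest wild-type tumour, against 11.0% of all bins, and in 3 (0.741%) the order was the opposite, against 0.933%. These counts belong to the contrast that chose the chromosome. None of the 47 bins lay in the proximal stretch, where heterozygous tumours had 0.691% ± 0.0630 (SD, n = 4) and wild-type tumours 0.699% ± 0.0839 (SD, n = 3). Over the rest of the chromosome the difference was 26.9%. Of the other low clusters, in the predicted genes from 41.4 to 43.8 Mb the wild-type tumours held 0.243%, 0.576% and 0.509% and the heterozygous tumours 0.775%, 0.557%, 0.860% and 1.15%, and in the olfactory receptor block 0.553%, 0.689% and 0.296% against 0.691%, 0.522%, 0.892% and 0.479%. In the Ear block the wild-type tumours held 0%, 1.63% and 0% and the heterozygous tumours 0.463%, 0%, 1.40% and 1.89%. The groups overlapped in all 3 blocks, and the blocks were not tested against the proximal stretch.

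By stretch, the relative difference was 17.4% to 32.1% in 11 of 13 stretches. The exceptions were the stretch from 120 Mb to the end, with 50.2%, and the stretch from 80 to 90 Mb, with 2.78%. Without the last bin, the distal end had 24.7%, within the range of the others. In the stretch from 80 to 90 Mb the wild-type tumours held 0.881%, 0.909% and 0.963% and the heterozygous tumours 1.01%, 1.01%, 1.06% and 0.696%. Heterozygous tumours 1, 2 and 3 exceeded every wild-type tumour and heterozygous tumour 4 was below each of them. The larger gene-poor block from 81.0 to 97.2 Mb, 54 bins with 7 protein-coding genes, had 5.6%. When bins were put into 4 equal classes by their level in the plasmid model, which shares no tumour with this comparison, the relative difference was 18.1%, 13.3%, 23.4% and 33.8% from the lowest to the highest class. The highest class includes the last bin, with means of 1.96% in wild-type and 14.7% in heterozygous tumours, and was not computed without it.

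**Figure D5:**
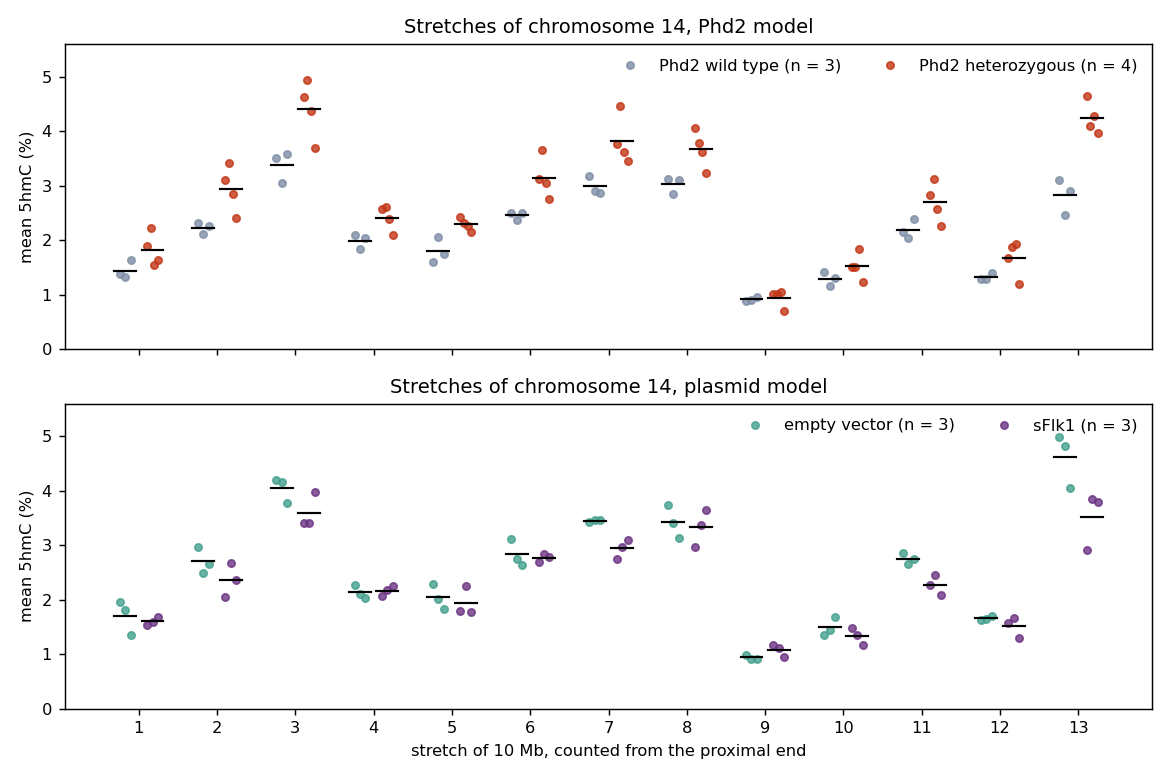
Mean 5hmC (percent) of the 13 stretches of 10 Mb along chromosome 14, by tumour and group, for each model. Heterozygous means lie above wild-type means in all 13 stretches, by 2.78% of the wild-type mean in the stretch from 80 to 90 Mb; the gap between sFlk1 and empty vector is -23.8% at the distal end, and -11.0% there without the last bin, less than the -17.3% from 100 to 110 Mb.

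The bins with the largest Phd2 differences were the last bin and those of Thrb, Arhgef3, Hmbox1 and Top2b. After the last bin, the bin of Thrb, the thyroid hormone receptor beta gene (chr14:17700001-18000000), led with 4.11%, 3.56% and 5.32% in wild-type and 11.0%, 10.1%, 6.21% and 4.21% in heterozygous tumours. Heterozygous tumour 4 lay within the wild-type range. The bin before it, chr14:17400001-17700000, into which Thrb extends, was among the 5 with the largest difference in the other direction, with 3.20%, 2.95% and 2.06% in wild-type and 3.14%, 2.5%, 1.61% and 1.11% in heterozygous tumours. The groups overlapped there as well.

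The next bins held Arhgef3, a guanine nucleotide exchange factor gene, with Il17rd and Hesx1 (difference 3.39 points, 5.6%, 2.44% and 5.39% against 6.56%, 9.95%, 6.57% and 8.42%) and Hmbox1, Ints9 and Extl3 (2.96 points, 4.04%, 3.42% and 5.31% against 6.31%, 8.41%, 5.66% and 8.49%). In both bins the heterozygous group lay wholly above the wild-type group. The bin of Top2b, Ngly1 and Oxsm (chr14:16200001-16500000) had the widest gap of the 5, with 2.38%, 2.92% and 3.33% in wild-type and 5.90%, 5.69%, 5.41% and 6.20% in heterozygous tumours. Its group means were 2.88% ± 0.476 (SD, n = 3) and 5.80% ± 0.333 (SD, n = 4). Bins with the largest differences downwards, from -0.630 to -0.789 points, held predicted genes or pseudogenes, apart from the one that holds part of Thrb.

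The bin that holds most of Rarb (chr14:16500001-16800000), which adjoins that of Top2b, did not share its gap. Rarb also extends into the bin of Top2b, so the bins do not separate the genes. Over the 3 bins that Rarb's body touches, that of Top2b included, wild-type tumours had 2.77% ± 0.401 (SD) and heterozygous tumours 3.80% ± 0.415 (SD). The bin chr14:16500001-16800000 alone held 3.06%, 3.99% and 4.31% in wild-type and 3.35%, 4.89%, 4.16% and 3.38% in heterozygous tumours, and the groups overlapped. In the plasmid model Top2b's bin had 3.58%, 4.55% and 3.75% in empty vector and 2.90%, 4.73% and 4.63% in sFlk1 tumours. Rarb's bin had 5.28%, 5.67% and 2.80% in empty vector and 3.07%, 1.89% and 1.87% in sFlk1 tumours, where empty vector tumour 3 lay below sFlk1 tumour 1. limma gave a difference of -2.31 points (SE 0.750) with an unadjusted p of 0.00480 and an adjusted p of 0.517.

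Genes listed by role, 89 in 72 bins of the chromosome, were mostly in bins with a higher mean in heterozygous tumours, 61 of 72 against 75.1% of all bins, with a median difference of 0.751 points against 0.396 over all bins of the chromosome and 0.385 over all bins tested. Their bins also held more 5hmC, with a median of 3.26% against 2.08% on the chromosome. Among tumour suppressor genes the heterozygous mean was the higher one in all 9 bins, with a median difference of 0.918 points. The largest were those of Ptprg, a receptor tyrosine phosphatase gene, with 4.96% ± 1.34 (SD, n = 3) against 7.67% ± 1.73 (SD, n = 4), and Rb1, with 6.50% ± 0.864 against 9.0% ± 1.54, and in both the groups overlapped. The bin of Bap1, a deubiquitinase gene, had 3.73% ± 0.442 against 4.77% ± 0.483, and that of Pcdh17, a protocadherin gene in the gene-poor block, 0.581% ± 0.160 against 0.877% ± 0.394.

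Of 9 bins of oxygen-response and vessel genes, 7 were higher on average in heterozygous tumours and in 1 the groups did not overlap, shares near the 75.1% and 11.0% of all bins. The bin without overlap was that of Plau and Vcl (4.32% ± 0.148 against 5.68% ± 0.575). The bin of Bnip3l, a mitophagy gene induced by hypoxia, had 4.65% ± 0.674 against 5.81% ± 1.18, that of Loxl2, a collagen-crosslinking oxidase gene, 2.43% ± 0.430 against 3.03% ± 0.433, and that of Ednrb, an endothelin receptor gene, 1.42% ± 0.548 against 1.39% ± 0.610. Of 10 bins of epithelial and growth factor genes, 9 had a higher mean (75.1% of all bins did) and in 4 the heterozygous group lay wholly above (11.0% of all bins). The bin of Bmpr1a, a BMP receptor gene, held 4.45%, 3.97% and 4.43% in wild-type and 7.66%, 6.94%, 5.99% and 5.37% in heterozygous tumours, without overlap. The bin of Nrg3, a neuregulin gene of the nervous system, was at 0.564% over all tumours.

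A list of genes known mainly from muscle and neurons, with the widely used kinase gene Mapk8 among them, gave a heterozygous mean that was the higher one in all 9 bins, against 75.1% of all bins, with a median difference of 0.792 points. In 3 of the 9 the heterozygous group lay wholly above, against 11.0% of all bins. Among 14 bins of a list of long genes and genes of gene-poor parts, whose members vary in length and in gene density around them (Kcnma1, Slitrk1, Gpc5, Pcdh9 and others), 10 had a higher mean and the median difference was 0.0593 points. Housekeeping genes had a higher mean in 8 of 9 bins (median 0.875 points), chromatin genes in 7 of 9 (1.23 points), immune cluster genes in 4 of 6 (0.563 points) and the nuclear receptor and topoisomerase genes in 4 of 4 (1.58 points). The lists were drawn up with earlier results of these data known, and nothing particular to a list is claimed.

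The plasmid model asks how 5hmC differs when the VEGF signal to vessels is blocked. Chromosome 14 held 2.54% ± 0.13 (SD, n = 3) with the empty vector and 2.31% ± 0.104 (SD, n = 3) with sFlk1. The difference was -0.229 points (SE 0.0961), or -9.01%, and the groups did not overlap. Exact two-sided permutation of the groups gave p = 0.10, the smallest value that 3 against 3 tumours allow, and 0.15 after adjustment over the same 3 tests, so 0.05 could not be reached. The other autosomes together had -8.44%. Relative to them chromosome 14 differed by 0.00629 points (exact permutation p = 0.90, 0.90 after adjustment), and it was 8th of 20 chromosomes by relative decrease. Without the last bins its difference was -0.197 points, or -7.96%, and it was 14th.

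No bin of the chromosome passed limma's test of sFlk1 against empty vector. With Benjamini-Hochberg adjustment over all bins, 0 of 405 bins passed 0.05, against 0.0117% of all bins. At an unadjusted p under 0.05, 27 bins (6.67%) were lower and 14 (3.46%) higher in sFlk1 tumours, against 5.06% and 2.12% of all bins. The 14 include chr14:3600001-3900000 and chr14:5400001-5700000, which were above 0 in sFlk1 tumours only and could not be lower. With limma on only the bins above 0 in all 13 tumours, 23 of 319 were lower and 4 higher. The shares over all bins of that kind are not given here. In 48 bins (11.9%) the sFlk1 group lay wholly below the empty vector group and in 9 (2.22%) wholly above it, against 8.24% and 3.43% of all bins. The mean was lower in 227 bins (56.0%), against 59.5% of all bins.

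Among named bins, the difference with the smallest p outside the proximal clusters was in the bin chr14:11400001-11700000, which holds part of Ptprg. Gene bodies cover 48.9% of this bin. The bin held 6.23%, 5.95% and 6.95% in empty vector and 2.96%, 4.06% and 3.20% in sFlk1 tumours, without overlap. limma gave -2.97 points (SE 0.873, unadjusted p = 0.00213, adjusted p = 0.466). The following bin of Ptprg, from 11.7 Mb, had 6.07% ± 0.766 (SD, n = 3) and 5.69% ± 0.824 (SD, n = 3). Over the 3 bins that Ptprg's body touches, the means were 5.34% in empty vector and 4.58% in sFlk1 tumours.

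The bins of Rcbtb2, Cysltr2 and part of Rb1 (5.70%, 5.57% and 4.40% against 3.71%, 2.54% and 2.33%) and of Ndfip2, a ubiquitin ligase adaptor gene (8.95%, 5.66% and 4.89% against 4.17%, 3.69% and 2.61%), were also lower in all sFlk1 tumours, with limma's adjusted p of 0.466 and 0.517. In the other direction the bin of Sh2d4b and Tspan14 held 3.32%, 4.69% and 4.20% in empty vector and 5.43%, 8.29% and 6.01% in sFlk1 tumours, without overlap (limma adjusted p = 0.517). The bin chr14:87900001-88200000 in the gene-poor block held 0%, 0% and 1.09% against 0.664%, 2.07% and 1.85% (limma adjusted p = 0.517), and the bin chr14:53700001-54000000 of T cell receptor alpha segments 0%, 0.278% and 0.568% against 0.508%, 1.57% and 2.20% (limma adjusted p = 0.619). The groups overlapped in both, and none of these bins passed.

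Several bins with small p values lay in the sparse proximal stretch. The bin chr14:4500001-4800000 held 0%, 3.90% and 2.74% in sFlk1 tumours and was listed at 0 in all 3 empty vector tumours, and the bin chr14:3600001-3900000 held 2.56%, 2.04% and 0% against 0 in all 3. limma's adjusted p was 0.342 and 0.356. Without sFlk1 tumour 1 the first of them passed (adjusted p = 4.96e-06, limma), and without sFlk1 tumour 3 the other did (adjusted p = 1.99e-05, limma). The tumour left out in each case is the one at 0. In the Phd2 model the first bin was at 0 in all tumours but wild-type tumour 3 (0.495%), and the other bin in all. The other bin thus entered only through sFlk1 tumours. limma takes its spread over all groups, these zeros included, so the p-values of both bins are no support for a difference. The bin chr14:5100001-5400000 was at 0 in all sFlk1 tumours and held 4.55%, 5.88% and 0% in empty vector tumours. In the bin at 7.5 Mb, of predicted genes and above 0 throughout, the values were 5.32%, 3.59% and 3.90% against 1.5%, 1.95% and 1.86% (limma adjusted p = 0.466).

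By stretch, 0 of 13 passed limma's test over 275 stretches of 10 Mb, as did 0% of all stretches. At an unadjusted p under 0.05, 3 of 13 were lower in sFlk1 tumours, against 7.64% of all stretches in either direction. From 60 to 70 Mb the empty vector tumours held 3.44%, 3.46% and 3.46% and the sFlk1 tumours 2.76%, 2.98% and 3.10% (limma unadjusted p = 0.0312, adjusted p = 0.507). From 100 to 110 Mb they held 2.86%, 2.65% and 2.75% against 2.28%, 2.46% and 2.09% (unadjusted p = 0.0302, adjusted p = 0.507, limma). In both stretches the groups did not overlap. From 120 Mb to the end the values were 4.99%, 4.82% and 4.04% against 2.92%, 3.86% and 3.79%, a difference of -23.8% (limma unadjusted p = 0.00188, adjusted p = 0.507), which was -11.0% without the last bin.

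Mean 5hmC was higher with sFlk1 in the lowest bins and lower with sFlk1 in the highest bins, and the difference between the classes was not tested. In the 102 bins lowest in the Phd2 model, the empty vector tumours held 0.683%, 0.678% and 0.652% and the sFlk1 tumours 0.885%, 0.804% and 0.727%, so that all sFlk1 tumours lay above. This class includes bins that were above 0 in sFlk1 tumours only and could only raise the sFlk1 values. Among them are chr14:3600001-3900000 and chr14:5400001-5700000, with sFlk1 means of 1.53% and 0.995%. The class without such bins was not computed, so its p-value is no support for a rise. In the 101 highest bins the empty vector tumours held 5.28%, 4.97% and 4.76% and the sFlk1 tumours 3.92%, 4.37% and 4.67%, so that all sFlk1 tumours lay below. These bins include the last bin of the chromosome, with means of 26.1% in empty vector and 13.2% in sFlk1 tumours. The class without it was not computed. From the lowest to the highest class the relative difference was 20%, 0.614%, -12.3% and -13.7%. By exact two-sided permutation, p was 0.10, 0.90, 0.10 and 0.10 (0.133, 0.90, 0.133 and 0.133 after Benjamini-Hochberg adjustment over 4 classes), with 0.10 the smallest possible. The stretch from 80 to 90 Mb, lowest on the chromosome, had 0.942% ± 0.0401 (SD, n = 3) in empty vector and 1.08% ± 0.120 (SD, n = 3) in sFlk1 tumours, and the groups overlapped.

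The listed genes had no bin past limma's adjusted threshold in the plasmid model and 5 of 72 at an unadjusted p under 0.05, against 616 of 8576 over all bins. The mean was lower in 39 of 72 bins, against 59.5% of all bins. The median difference was -0.0946 points against -0.121 over the chromosome and -0.146 over all bins tested. In 5 bins the sFlk1 group lay wholly below the empty vector group, and in 1 above it, against 8.24% and 3.43% of all bins. The bin of Uchl3, a deubiquitinase gene, held 6.21%, 6.12% and 5.6% against 3.22%, 4.30% and 3.51% (limma unadjusted p = 0.0120, adjusted p = 0.598). The bin of Bmpr1a had 5.04%, 4.44% and 5.39% against 4.28%, 2.21% and 2.85%, and that of Clu, the clusterin gene, 5.81%, 5.56% and 5.91% against 3.13%, 3.66% and 5.26%. In these 3 bins the groups did not overlap.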

How the data were processed

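The authors deposited 1 table of TAB-seq results with the 5hmC percent of each 300 kb bin, 1 column per tumour, 9097 rows in all. The submitters' processing notes list Bismark 0.13.1 and the build mm9 without saying how they were used. The last bins end at GRCm38 chromosome lengths (124902244 for chromosome 14), so genes were placed with RefSeq GRCm38.p6, each in the bin that holds most of its body. How calls were pooled into bins, and any coverage minimum, was not given in the sources used here. Per the labels' protocols, DNA was extracted with 200 µM of the iron chelator DFO.

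The members, lists and tests were chosen with earlier results of these data known. Columns were matched to tumours by the labels' descriptions. A tumour's value is the unweighted mean over bins, and SEs of differences come from group SDs. Bins of chromosomes 1 to 19 and X above 0 in at least 1 tumour were fitted with limma 3.58.1 (R 4.3.3), 13 tumours and 4 group means (8576 bins with a variance trend, 275 stretches of 10 Mb with none), and Benjamini-Hochberg adjustment at 0.05. Exact permutation tests went through all arrangements in Python 3.11.15 with numpy 2.4.6, and correlations used scipy 1.17.1. The planned test of the proximal stretch against the rest is given as values only, since that stretch was known to be sparse. p-values measure the spread between tumours of different mice. Named bins were the 5 highest and lowest among bins above 0 in all tumours, the 5 with the largest Phd2 difference and the 5 with the smallest sFlk1 p in each direction, and bins of 89 listed genes, all matched; listed genes not named enter the counts only, and some values are not reported here; the named clusters and the 4 genes whose promoters are shown were picked after their values were seen. In data simulated for the sFlk1 comparison, 200 of 8576 bins were raised in the sFlk1 tumours. limma recovered 41% of them at 2 points, 91% at 4 and 96.5% at 6. Falls were not simulated, so these shares do not give the recovery of lower values in sFlk1 tumours.

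Alternatives were medians over bins, only bins above 0 in all tumours, no proximal stretch, a ratio to the other autosomes, inclusion of X, a log2(percent + 0.5) scale, no trend, only the 6 tumours of the contrast, 3 Mb stretches, cover by gene bodies, a replicate block and each tumour left out. Leaving out the last bin of each chromosome was added after seeing the data.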

Additional observations from a re-analysis of the deposited data

Results flagged for a closer look

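Among 124 groups of 4 heterozygous tumours, 4 had a tumour far from the other 3, with a gap over the group's range above Dixon's critical value for 4 samples; chance alone gives about 1 in 20 such groups. In the stretch from 80 to 90 Mb, heterozygous tumour 4 had 0.696% against 1.01%, 1.01% and 1.06%. In the bin chr14:5100001-5400000, heterozygous tumour 2 had 5% and the other 3 were at 0. In the bin of Myh6, a cardiac myosin gene, heterozygous tumour 1 had 5.23% against 3.60%, 3.57% and 3.71%. In the bin of Tpt1, a translationally controlled tumour protein gene, heterozygous tumour 1 had 4.69% against 3.76%, 3.86% and 3.80%.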

How the results depend on the processing

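Of the values recomputed under other settings, 72 were counted as unchanged, 5 moved and 5 changed sign. The other 12, each with a tumour left out, had an unadjusted p above 0.05 that no arrangement of 5 tumours could bring lower. Unchanged means the same direction and side of 0.05 for tested values, whatever their size. The exact permutation tests of sFlk1 against empty vector could not reach 0.05 in any setting, so only the direction could change for them. For untested values unchanged means a shift within the spread between tumours, and for counts an equal or close count. Ranks did not enter, so chromosome 14 as 8th with medians over bins counts as unchanged. The difference of chromosome 14 relative to the other autosomes between sFlk1 and empty vector tumours, 0.00629 points, changed sign to -0.0285 with only bins above 0 in all tumours, -0.00339 without the proximal stretch and -0.00613 as a ratio, and ranged from -0.0291 to 0.0329 when each tumour was left out. It was 0.0376 without the last bins (exact permutation p = 0.50), and the cause was not tested. The correlation of 5hmC with gene content was 0.493 for cover by gene bodies and 0.485 without the proximal stretch. The number of bins called between sFlk1 and empty vector ranged from 0 to 1 when each tumour was left out. When each tumour was left out, the chromosome lay -0.257 to -0.232 points from the other autosomes and the proximal stretch -1.63 to -1.46 points from the rest. With 5 tumours the smallest exact permutation p is 0.0625, so these could not pass. The difference of the chromosome between sFlk1 and empty vector ranged from -0.288 to -0.159 points.

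Same-numbered sFlk1 and empty vector tumours did not deviate together across bins (r of -0.0526, -0.0421 and -0.0445). This measure gave no sign of a pairing, but it cannot exclude a shift that a pair shares over all bins. The labels do not say whether the numbers pair the tumours. With the replicate number as a block, 1 stretch was called, that from 120 Mb to the end (-1.10 points, limma adjusted p = 0.000548), 0 bins were called, and the chromosome's difference of -0.229 points had an exact permutation p of 0.25, the smallest possible. Without read counts, bins with few reads cannot be separated from bins with little 5hmC, which limits the sparse stretches and the short last bin most.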
